A study of Drosophila melanogaster with 18 samples.

Results

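The comparison described here is that of fly heads taken after 1 exposure to ethanol vapor with heads of naive flies that had received air alone. It rests on 12 of the 18 samples of the series, 6 in each group, taken by the group name in the sample titles. All flies were wild-type Canton-S Drosophila melanogaster, 2 to 5 days old, with no transgene. Naive flies received 50 min of humidified air and were then flash frozen. Single-exposure flies received the same air period, then ethanol vapor at 50% for 40 min, before freezing. Each sample pooled about 60 whole heads, which were broken off in liquid nitrogen and sieved, and the titles call the 6 samples of a group biological replicates. Which sex the flies were is not stated in the labels, and no group kept in air for as long as the single-exposure flies were handled was analysed here, so ethanol, the added time and the handling cannot be told apart. The array numbers in the titles run on within each group, so array order and group cannot be told apart either. A whole head holds brain, eyes, antennae, muscle, cuticle and fat body, and in such bulk RNA fewer cells of a type and less RNA per cell cannot be told apart.

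Ethanol is oxidised in flies by alcohol dehydrogenase to acetaldehyde and then to acetate, which can be joined to coenzyme A and used for energy or for making fat. The fat body that lines the head capsule is the insect counterpart of liver and adipose tissue: it stores triglyceride in lipid droplets, breaks down amino acids and secretes proteins and hormones. Foreign compounds are handled there and in other tissues by cytochrome P450 enzymes, which oxidise them, and by glutathione S-transferases and UDP-glycosyltransferases, which attach water-soluble groups. Flies that have recovered from sedation by ethanol are known to tolerate it better afterwards.

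Genes that rose after the exposure included those of detoxication, fat synthesis and storage, and cytosolic chaperones. Men, which makes NADPH, and Pgls and CG8036 of the pentose phosphate pathway rose too. Among those that fell were genes of tyrosine breakdown and of the protein channel of the endoplasmic reticulum. The purine genes ry and ras, the pteridine genes Pu and pr, and ple of dopamine synthesis also fell. In the limma fit, 412 of 9317 probe sets passed an adjusted p of 0.05 (4.42%), 239 higher and 173 lower. Taken as 1 probe set per gene, 347 of 7466 genes passed (4.65%), of which 205 were higher (2.75% of the genes tested) and 142 lower (1.9%). Changes were mostly small: the median fold of the higher genes was 1.25 and that of the lower genes 0.826, and 37 genes rose and 12 fell by over 1.5-fold. In 239 genes (3.2%) the 6 arrays of one group all lay above the 6 of the other, and 129 of these were called higher, 74 lower and 36 not called. Calls were more frequent among genes of higher signal, at 8.36% among the 2489 genes of highest mean level, 3.14% among the 2488 in the middle and 2.45% among the 2489 of lowest level.

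**Figure D1:**
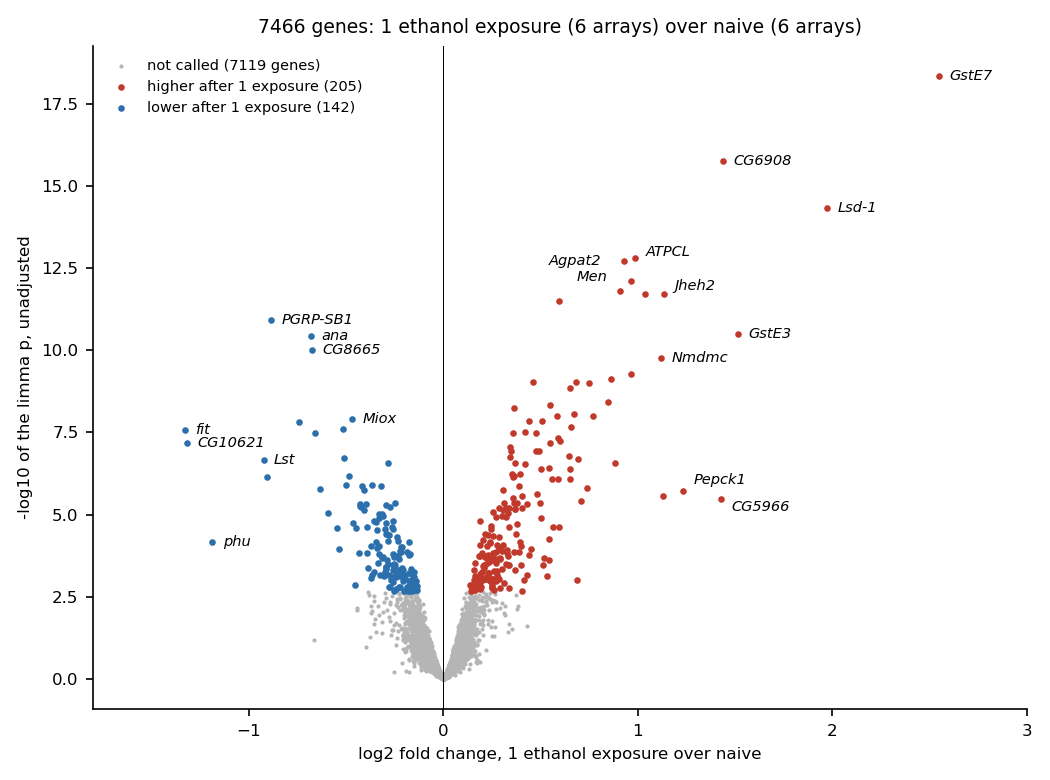
Each point is 1 of 7466 genes, placed by its log2 fold change after 1 exposure over naive heads and by the -log10 of its unadjusted limma p. The 205 genes called higher (red) reach a log2 fold change of 2.55 for GstE7, and the 142 called lower (blue) reach -1.33 for fit.

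The arrays were alike in overall scale, with medians between 125.4 and 129.3. Single-exposure arrays lay between -7.37 and -3.61 on the second principal component, which held 16.9% of the variance, and naive arrays lay between 0.09 and 13.2. Naive replicate 5 was the farthest out there and correlated least with the other arrays of its group (mean r = 0.982). The control probe sets at the 2 ends of the 18S ribosomal RNA differed between groups: the log2 ratio of the 3' to the 5' end was -2.92 ± 0.44 in naive heads (SD, n = 6, -3.42 to -2.39) and -1.99 ± 0.23 after exposure (-2.35 to -1.68), with no overlap. The same ratio for the GAPDH messenger RNA was 1.30 ± 0.26 and 1.30 ± 0.21, and that for actin 2.01 ± 0.08 (1.88 to 2.10) and 2.18 ± 0.12 (2.00 to 2.32), with overlap. Whether the 18S difference reflects RNA length was not tested, nor was the part of RNA length in the results below. With naive replicate 5 left out, 210 probe sets were higher and 213 lower, and median centring gave 206 higher and 201 lower, so no excess of higher over lower calls is drawn on below.

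Glutathione S-transferases, which join glutathione to reactive and oxidised compounds, rose more often than they fell: of 31 genes tested 9 rose and 1 fell, with a median log2 fold change over the list of 0.06, against 0.01 over all genes. GstE7 had the highest fold of the comparison. Its intensity lay between 40.3 and 61.7 in naive heads (median 48.5) and between 267 and 431 after exposure (median 358). The groups lay far apart, and the fitted fold was 5.85 (95% interval 5.2 to 6.57, adjusted p = 4.15e-15). Naive values lay near or under the floor of 57.8, and those under it were set to it. The size, the interval and the p therefore depend on how low values are treated. All naive values also lay under the filter on mean level (85.8), which the gene passed through its higher arrays. The fold was 4.6 with a pseudocount of 32 and 6.96 with a lower floor, both outside that interval. The call was kept under every alternative (adjusted p up to 1.23e-10). GstE3 lay between 289 and 413 in naive heads (median 360.3) and between 687 and 1324 after exposure (median 1075). All exposed arrays were above all naive arrays (2.86-fold, 2.4 to 3.4, adjusted p = 2.38e-08). GstD1, an enzyme known to act on organochlorine insecticides, was tight in the naive group, at 2363 to 2546 (median 2507), and reached 3498 to 4173 (median 3707) after exposure, again without overlap (1.51-fold, adjusted p = 2.77e-09).

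The other members that rose were GstE6 (1.46-fold), GstE9 (1.46), GstE1 (1.34), GstT3 (1.21), GstD9 (1.18) and GstD2 (1.17), and GstT4 fell to 0.845-fold. The call of GstE9 was lost under 2 alternatives (adjusted p up to 0.0569) and that of GstD9 under 4 (up to 0.098), among them without naive replicate 1 or single-exposure replicate 3. In the order of a current gene table GstE6 and GstE7 are neighbours on chromosome arm 2R, and GstD9, GstD1 and GstD2 follow each other on 3R. Probe sets of such near copies can share signal, which was not tested. GstE3 and GstE7 are members of the same 2R cluster.

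Among cytochrome P450 genes, 13 of 55 rose and 2 fell, with a median log2 fold change of 0.04. Cyp6a2, known in flies to oxidise insecticides such as DDT, lay between 859 and 1024 in naive heads (median 936) and between 1560.4 and 1999 after exposure (median 1723). No exposed array came down to the naive range (1.88-fold, 1.72 to 2.05, adjusted p = 1.84e-09). Cyp6d5 lay between 846 and 1142 in naive heads (median 1041) and between 1633 and 2408 after exposure (median 2044), also apart (1.95-fold, adjusted p = 2.49e-07). Cyp6w1 had 1314 to 2195 (median 1602) in naive heads and 2827 to 3259 (median 2982) after exposure, a fold of 1.82 (adjusted p = 3.27e-07) with every exposed array above every naive one. The rest that rose were Cyp4e2 (1.68-fold), Cyp4p1 (1.61), Cyp6a8 (1.59), Cyp9b2 (1.5), Cyp309a1 (1.42), Cyp6a21 (1.3), Cyp309a2 (1.25), Cyp6g1 (1.22), Cyp4e3 (1.17) and Cyp9b1 (1.14). The call of Cyp9b1 was lost under 11 alternatives (adjusted p up to 0.119), 7 single arrays left out among them, that of Cyp6g1 under 6 (up to 0.076), among them without naive replicate 1 or single-exposure replicates 3 or 6, and that of Cyp309a2 under 1 (0.0502). The P450 genes that rose include 3 neighbouring pairs: Cyp309a1 with Cyp309a2 on 2L, and Cyp9b1 with Cyp9b2 and Cyp6a21 with Cyp6a8 on 2R. Cyp4ac1 went the other way, from 147 to 227 (median 209.6) in naive heads to 112 to 168 (median 133) (0.664-fold, adjusted p = 0.000668), ranges that overlapped, and Cyp313a1 fell to 0.772-fold.

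Of the further detoxication families, 1 of 13 UDP-glycosyltransferases rose, Ugt37A3, which lay between 84.4 and 126 in naive heads (median 103) and between 127 and 381 after exposure (median 219). Its fold was 2.19 (1.69 to 2.82, adjusted p = 0.000259), with a wide spread among exposed arrays, the lowest of which was just above the highest naive one. Carboxylesterases, which split esters, had 2 members higher, alpha-Est2 (1.47-fold) and alpha-Est10 (1.24), and 2 lower of 14, and their list median was -0.10. Of 32 ABC transporters, membrane pumps driven by ATP, 2 rose, CG5853 (1.43-fold) and CG3164 (1.23), and 1 fell, the eye pigment carrier bw (0.86). Over all genes 4.65% were called, against 7.69% of the UDP-glycosyltransferases and 9.38% of the ABC transporters. Jheh2 encodes an epoxide hydrolase, a class that opens the epoxide of juvenile hormone and of other compounds. It lay between 646 and 939 in naive heads (median 785) and between 1433 and 1907 after exposure (median 1774) without overlap (2.2-fold, 1.97 to 2.46, adjusted p = 1.87e-09), and it was the only call among 8 genes of juvenile hormone metabolism and binding. 

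**Figure D2:**
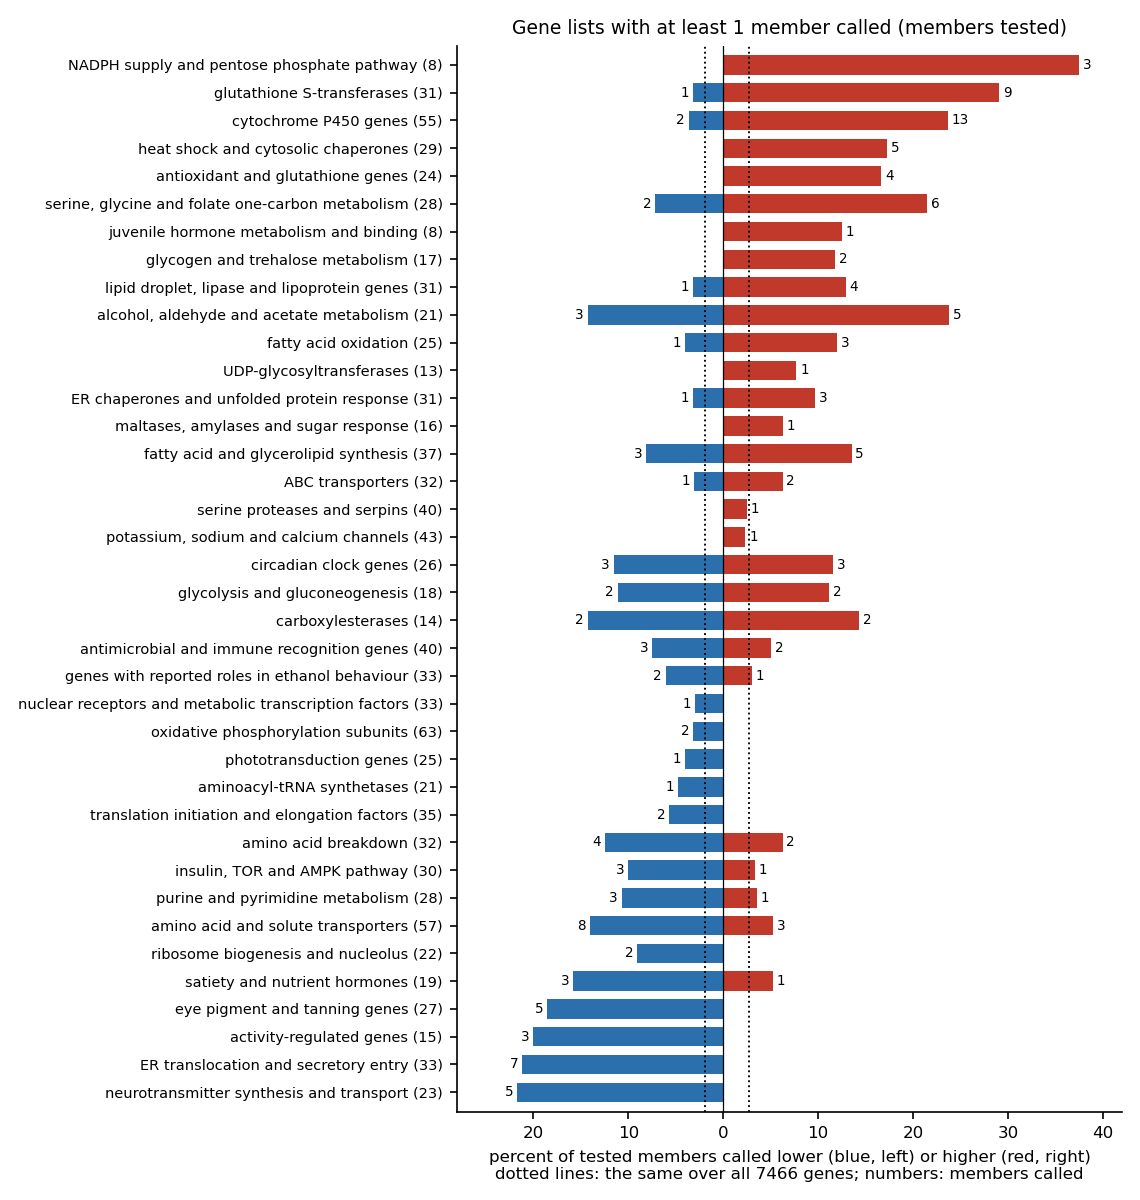
Bars give the percent of tested members called higher (red, right) or lower (blue, left) for the 38 pathway lists with at least 1 call, with the number called at each bar's end and the number tested in brackets. Dotted lines mark the 2.75% higher and 1.9% lower over all 7466 genes. Glutathione S-transferase, cytochrome P450, NADPH and cytosolic chaperone lists have more members called higher than lower, carboxylesterases have 2 each way, and ER translocation and neurotransmitter lists have members called lower and none higher.

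Reduced glutathione and thioredoxin are kept in that state with NADPH, and 4 of 24 antioxidant and glutathione genes rose and none fell. Gclm, the regulatory subunit of the enzyme that starts glutathione synthesis, lay between 155.6 and 241 in naive heads (median 192) and between 239 and 336 after exposure (median 288). The ranges overlapped at their edges and the fold was 1.48 (1.27 to 1.72, adjusted p = 0.00153). Trxr1, the thioredoxin reductase that also serves glutathione in flies, had 859 to 974 (median 906) in naive heads and 1054 to 1235 (median 1196) after exposure, with the groups apart (1.28-fold, adjusted p = 7.54e-05). Gtpx, a peroxidase gene, rose 1.29-fold. The call of Fer2LCH, a ferritin subunit (1.1-fold, adjusted p = 0.0475), was lost under 16 of the 23 alternative settings (adjusted p up to 0.176), leaving out any of 11 arrays among them. The median log2 fold change of the list was 0.01, the same as over all genes.

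Of 8 genes tested, out of 10 listed, of NADPH supply and the pentose phosphate pathway, 3 rose and none fell. Of these 3, only Men makes NADPH in its own reaction. Men, the cytosolic malic enzyme that makes NADPH from malate, lay between 1356 and 1879 in naive heads (median 1535) and between 2871 and 3297 after exposure (median 3022). The lowest exposed array was far above the highest naive one (1.95-fold, 1.78 to 2.14, adjusted p = 1.06e-09). The gene CG8036 encodes a transketolase of the pentose phosphate pathway, and it had 2213 to 2883 (median 2504) and 3083 to 3682 (median 3225) in the same order, with ranges that did not overlap (1.3-fold, adjusted p = 0.000407). Pgls, the lactonase of that pathway, rose 1.39-fold (adjusted p = 2.12e-05). The others tested, Taldo (1.17-fold), Rpi (1.04), Rpe (0.948), Idh (0.928) and Men-b (0.892), were not called. Nadk1a, a kinase gene of NAD, is in no list and fell to 0.70-fold (adjusted p = 6.06e-06).

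Among enzymes on the way from acetate and citrate to fat, AcCoAS, ATPCL, FASN1 and Agpat2 rose. ACC, which makes malonyl-CoA for the synthase, was at 1.18-fold and not called (adjusted p = 0.114), though called without single-exposure replicate 3 (0.0194), and neither were Agpat1 (1.05), Agpat3 (1.05) and Agpat4 (0.892). AcCoAS, which makes acetyl-CoA directly from acetate, lay between 1872 and 2624 in naive heads (median 2323) and between 3152 and 3884 after exposure (median 3562). The groups did not overlap (1.58-fold, 1.42 to 1.76, adjusted p = 5.31e-06). ATPCL, which splits citrate to give acetyl-CoA in the cytosol, had 485 to 606 (median 550.0) in naive heads and 1003 to 1191 (median 1078) after exposure (1.98-fold, 1.82 to 2.16, adjusted p = 3.57e-10), with a wide gap between the groups. FASN1, the fatty acid synthase of the fat body, lay between 1567 and 2146 in naive heads (median 1935) and between 2493 and 3305 after exposure (median 3008) (1.57-fold, adjusted p = 5.83e-05), and its ranges did not overlap. The gene Agpat2, an acyltransferase on the way to phosphatidic acid, showed 151 to 169 (median 162) and 279 to 328 (median 309) in the same order, with nothing between the groups (1.9-fold, 1.75 to 2.06, adjusted p = 3.57e-10). Of the 37 genes of fatty acid and glycerolipid synthesis, 5 rose and 3 fell, or 5 and 5 without naive replicate 5, and the list median was 0.02. The fifth to rise was the acyl-CoA synthetase hll (1.15-fold). Its relative bgm fell to 0.744-fold (adjusted p = 0.000416) and the phospholipid enzymes Pcyt2 and Pect fell to 0.826-fold and 0.846-fold. The call of Pect was lost under 8 alternatives (adjusted p up to 0.0974), among them without naive replicates 1, 3 or 5 or single-exposure replicate 3.

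Lipid droplet coat proteins rose as well. Lsd-1, a fly perilipin that controls the access of lipases to stored fat, lay between 484 and 726 in naive heads (median 656) and between 2169 and 2832 after exposure (median 2519). No array was in the gap between the groups (3.93-fold, 3.41 to 4.54, adjusted p = 1.47e-11). Jabba, which anchors histones and other proteins on droplets, had 336 to 459 (median 353) in naive heads and 515 to 716 (median 613) after exposure (1.71-fold, adjusted p = 2.97e-06), and its ranges did not overlap. GIIIspla2, a secreted phospholipase gene, rose 1.8-fold and the predicted lipase CG5966 2.7-fold, the latter with 4 naive arrays at the floor and a fold from 2.45 to 3.99 over the alternatives. Of 31 genes of droplets, lipases and lipoproteins 4 rose and 1 fell (0 to 3 lower over the alternatives). The lipase gene dob, related to the triglyceride lipase brummer, is named among the highest folds only and rose 1.57-fold (adjusted p = 9.55e-05). In fatty acid oxidation, 3 of 25 rose and 1 fell, with the peroxisomal enzyme gene Mfe2 at 1.26-fold (adjusted p = 0.0015) the strongest call. The calls of the other 3, Acadvl (1.22), Acox3 (1.12) and Hnf4 (0.885), were lost under 13, 13 and 4 alternatives, with an adjusted p up to 0.12, 0.118 and 0.059.

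**Figure D3:**
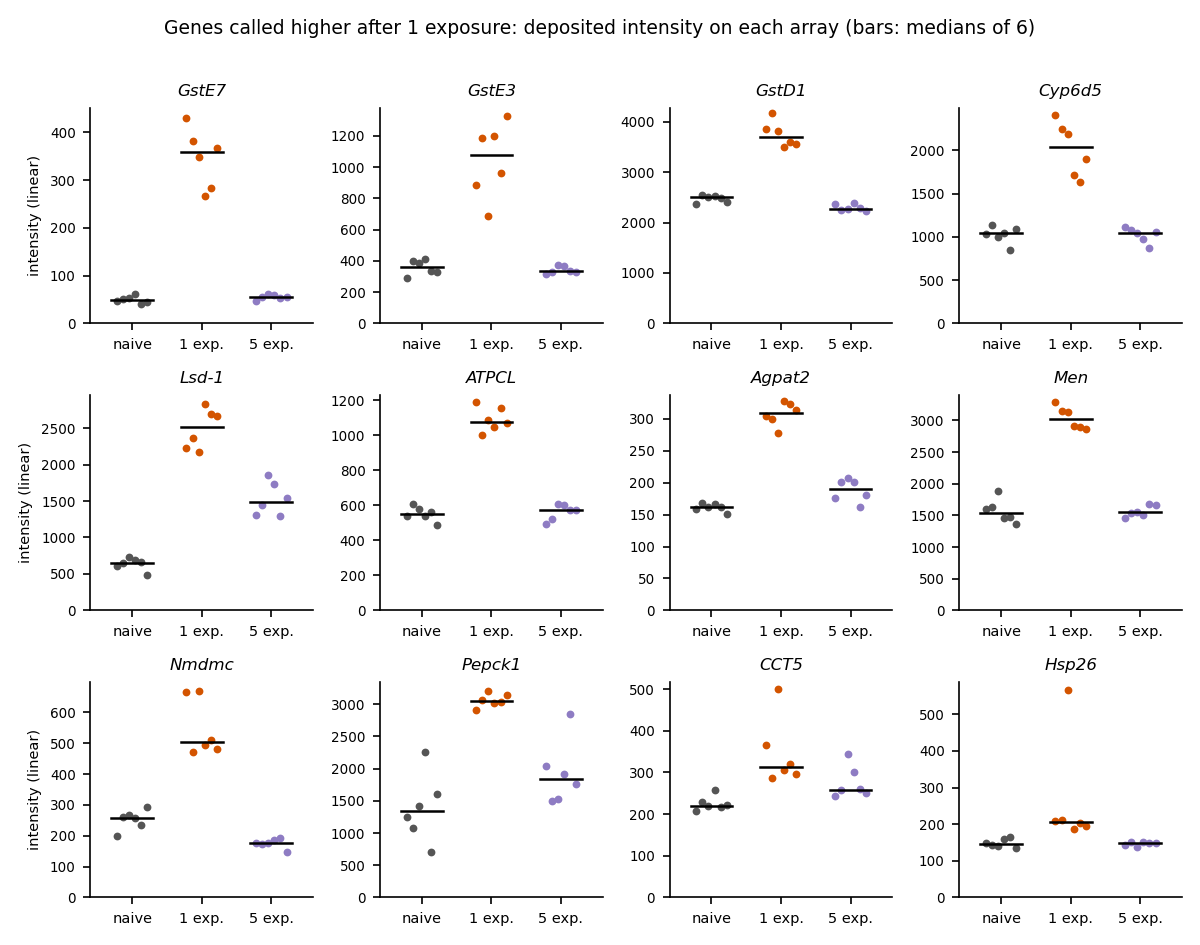
Deposited intensity of 12 genes called higher, on a linear axis from 0, with 1 point per array (naive grey, 1 exposure orange, 5 exposures purple) and a bar at each median. For GstE7, GstE3, GstD1, Cyp6d5, Lsd-1, ATPCL, Agpat2 and Men all 6 exposed arrays lie above all naive arrays, and for Hsp26 a single exposed array at 566 stands far above the others.

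Of the 21 genes of alcohol, aldehyde and acetate metabolism, 5 rose and 3 fell, and the list median was 0.04. Besides AcCoAS and Men, the rising members were AOX1 and AOX3, aldehyde oxidases, and CG3609 (1.51-fold, adjusted p = 9.97e-06). AOX1 lay between 379 and 483 in naive heads (median 465) and between 577 and 826 after exposure (median 698) (1.56-fold, adjusted p = 2.83e-05), in ranges that did not overlap. The gene AOX3 rose 1.16-fold, a call lost without naive replicate 5 and single-exposure replicate 3 together (adjusted p = 0.0654). The falling members were ry and CG8665, described with their pathways below, and Sodh2, a sorbitol dehydrogenase, at 205 to 264 (median 223) in naive heads and 159 to 196 (median 174) after exposure (0.76-fold, adjusted p = 0.000411), which did not overlap. Adh and Aldh, the main enzymes of ethanol and acetaldehyde oxidation, were not analysed here.

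Serine, glycine and folate enzymes pass single-carbon units to purines, methionine and thymidylate. Of 28 such genes 6 rose and 2 fell, and 16 had a fold below 1 (median -0.02). Nmdmc, a mitochondrial folate dehydrogenase and cyclohydrolase, lay between 199 and 292 in naive heads (median 259) and between 472 and 671 after exposure (median 503). Every exposed array was above the naive range (2.18-fold, 1.89 to 2.5, adjusted p = 9.04e-08). The other genes that rose were Gnmt, which uses S-adenosylmethionine to methylate glycine (1.45-fold), ppl of the glycine cleavage system (1.41), the serine racemase Srr (1.31), Shmt, which makes glycine from serine (1.25), and the phosphoserine phosphatase aay (1.16). The call of Gnmt was lost under 6 alternatives (adjusted p up to 0.0924), among them without naive replicate 1 or single-exposure replicates 1, 2 or 3. AcCoAS and ppl are neighbours on 3L. Both genes that fell did so clearly. CG8665, a 10-formyltetrahydrofolate dehydrogenase, which releases the carbon unit as carbon dioxide, lay between 288 and 357 in naive heads (median 314) and between 185 and 212 after exposure (median 198), without overlap (0.627-fold, 0.577 to 0.68, adjusted p = 5.64e-08). CG10621, a predicted homocysteine methyltransferase, had 341 to 575 (median 457) and 131 to 268 (median 169) in the same order, also apart (0.401-fold, 0.317 to 0.506, adjusted p = 1.33e-05).

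Amino acid breakdown genes lay mostly below a fold of 1 (25 of 32, median -0.05), with 2 members called higher, P5cr-2 (1.37-fold) and CG14630 (1.32), and 4 lower, or 2 without single-exposure replicate 2 or 4. Of the 4, Tat, Hpd and hgo act in tyrosine breakdown and LKRSDH in that of lysine. Tat, the aminotransferase that takes tyrosine out of the pool, lay between 1088 and 1217 in naive heads (median 1126) and between 779.5 and 894 after exposure (median 864). All exposed arrays were below all naive ones (0.754-fold, adjusted p = 0.000556). Hpd, the dioxygenase of the next step, lay between 888 and 1191 in naive heads (median 998) and between 605 and 687 after exposure (median 660.1), again with no overlap (0.643-fold, 0.56 to 0.739, adjusted p = 0.00017). The step after that is homogentisate dioxygenase, hgo, at 0.889-fold (adjusted p = 0.029), a call that was lost without naive replicates 2 or 3 or single-exposure replicates 1, 2, 4 or 5 (adjusted p up to 0.0787). LKRSDH, which starts lysine breakdown, was at 0.829-fold (adjusted p = 0.0235) and lost its call without naive replicate 1 or single-exposure replicates 2, 4 or 6 (up to 0.0699 over all alternatives).

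Purines are also the source of pteridines, which are fly eye pigments and, as tetrahydrobiopterin, the cofactor of tyrosine hydroxylase. Of 28 purine and pyrimidine genes, Prat2, which catalyses the first committed step of purine synthesis, rose 1.26-fold (adjusted p = 0.0122) and 3 genes fell: ry, ras and su(r). In this list 16 genes had a fold above 1, and the median log2 fold change was 0.01, the same as over all genes. The gene ry encodes xanthine dehydrogenase, which makes urate and the pteridine isoxanthopterin. It lay between 151 and 182 in naive heads (median 175) and between 123 and 146 after exposure (median 129), with no overlap (0.777-fold, 0.718 to 0.84, adjusted p = 0.000144). The IMP dehydrogenase gene ras was at 0.861-fold and su(r), which starts pyrimidine breakdown, at 0.781-fold. Eye pigment and tanning genes had 5 of 27 members lower and none higher: ry, bw (0.86-fold), the pteridine enzyme pr (0.864), Pu and t (0.839). The call of t was lost with 1 array left out in 9 of 12 cases (adjusted p up to 0.122), and that of pr without naive replicate 5 and single-exposure replicate 3 together (0.0655).

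Neurotransmitter synthesis and transport genes showed 5 lower and none higher of 23, with 16 below a fold of 1 and a median log2 fold change of -0.09. Pu encodes GTP cyclohydrolase, the start of both pigment pteridines and tetrahydrobiopterin. It lay between 688 and 952 in naive heads (median 780.5) and between 506 and 675 after exposure (median 623) (0.763-fold, adjusted p = 0.0067), so that the ranges did not overlap. The gene ple, tyrosine hydroxylase of dopamine synthesis, lay between 474 and 786 in naive heads (median 613) and between 407 and 494 after exposure (median 445) (0.733-fold, 0.65 to 0.827, adjusted p = 0.00159), and its ranges overlapped. The others were speck, an N-acetyltransferase that inactivates dopamine and serotonin (0.741-fold, adjusted p = 0.00661), the GABA transporter Gat, which is expressed in astrocyte-like glia (0.789-fold, adjusted p = 0.0052), and t, which takes dopamine and histamine off their beta-alanine conjugates. The part of ple, speck and t that is expressed in cuticle rather than in neurons was not tested.

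The channel through which new proteins enter the endoplasmic reticulum had its 3 subunit genes lower. Sec61alpha, the pore subunit, lay between 1046 and 1377 in naive heads (median 1248) and between 848 and 1032 after exposure (median 898), and the ranges did not overlap (0.744-fold, 0.672 to 0.824, adjusted p = 0.000466). Sec61gamma was at 0.748-fold (adjusted p = 0.000145) and Sec61beta at 0.803-fold (0.00842). Tapdelta, a subunit of the translocon-associated protein complex, lay between 611 and 733 in naive heads (median 655) and between 417 and 529 after exposure (median 477). No exposed array reached the naive range (0.715-fold, 0.647 to 0.79, adjusted p = 8.54e-05). CG5885, a predicted subunit of the same complex, was at 0.793-fold, the signal peptidase subunit twr at 0.843 and the cargo-sorting protein loj at 0.814. In all 7 of the 33 genes of ER translocation and secretory entry fell and none rose, 25 had a fold below 1, and the list median was -0.08. Between 6 and 8 were called lower under the alternatives, and the call of twr was lost without single-exposure replicate 2 (adjusted p = 0.052) or 6 (0.0513).

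**Figure D4:**
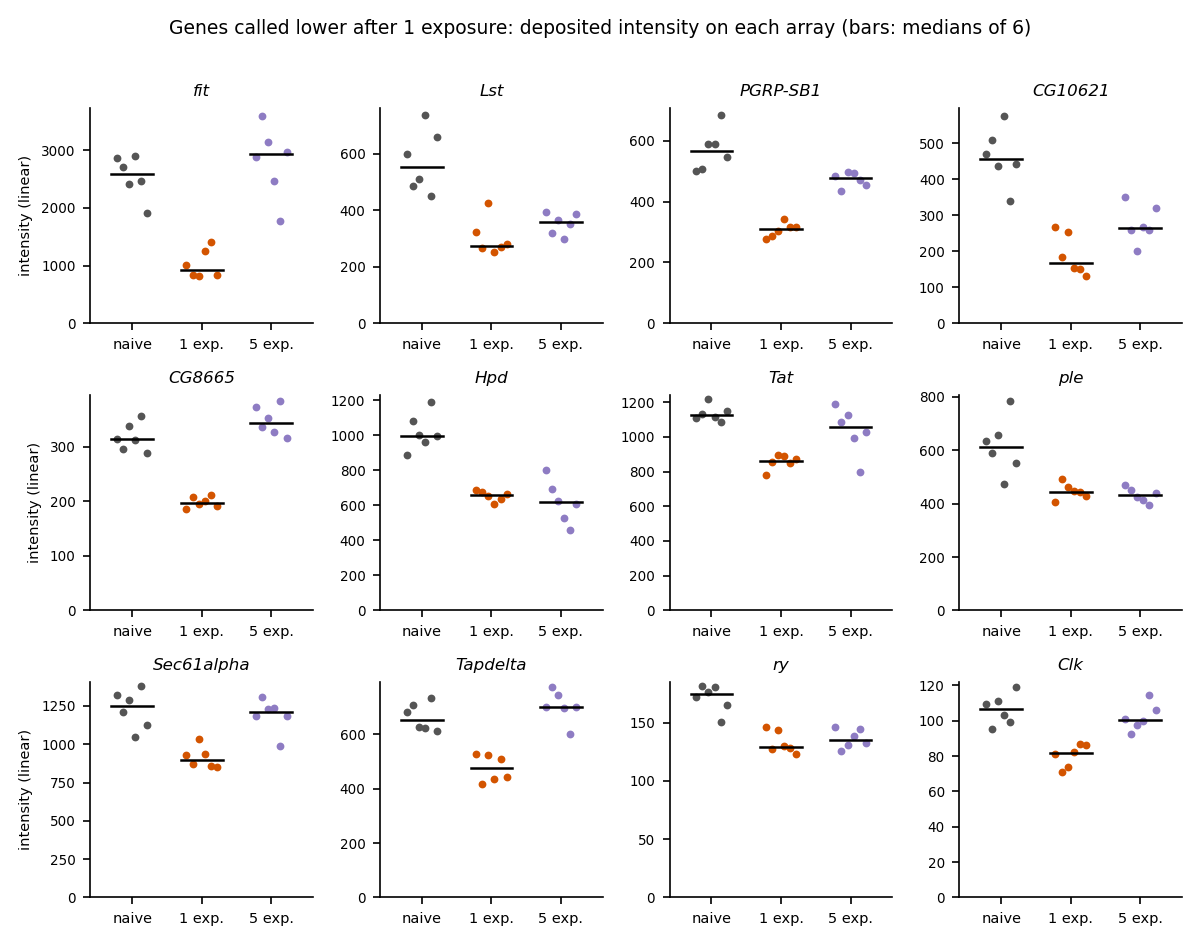
Deposited intensity of 12 genes called lower, on a linear axis from 0, with 1 point per array (naive grey, 1 exposure orange, 5 exposures purple) and a bar at each median. For PGRP-SB1, CG8665, CG10621, Hpd, Tat, Tapdelta and fit all 6 exposed arrays lie below all naive arrays.

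Of 31 genes of chaperones inside the endoplasmic reticulum and the unfolded protein response, 3 rose and 1 fell. Those that rose were P58IPK (1.26-fold, adjusted p = 0.0076), Der-1 (1.18, 0.00164) and Grp170 (1.14, 0.0395). These encode a DnaJ partner of BiP, a factor that helps to move misfolded proteins out, and an exchange factor of BiP. The call of Grp170 was lost under 12 alternatives (adjusted p up to 0.118). The member that fell, gb, is an amino acid transporter gene (0.815-fold).

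In the list of 29 heat shock proteins and cytosolic chaperones, 5 genes rose and 0 fell (median 0.11), and 3 rose with naive replicate 6 left out. CCT5, a subunit of the ring chaperonin that folds actin and tubulin, lay between 207 and 259 in naive heads (median 221) and between 286 and 501 after exposure (median 313), with the groups apart (1.51-fold, 1.29 to 1.77, adjusted p = 0.0015). The other 7 subunit genes of that ring had folds from 1.02 to 1.29 and were not called (adjusted p from 0.0608, for CCT2, to 0.870), though leaving out single-exposure replicate 2 brought in CCT2 and CCT3, and leaving out naive replicate 4 CCT2. DnaJ-1, a partner of Hsp70, lay between 315 and 373 in naive heads (median 348) and between 428 and 708 after exposure (median 507) (1.5-fold, adjusted p = 9.55e-05), without overlap. The small heat shock gene Hsp26 lay between 136 and 165 in naive heads (median 146) and between 188 and 566 after exposure (median 206) (1.61-fold, adjusted p = 0.0269). Its groups did not overlap, but 5 exposed arrays lay at 212 or lower and 1 stood far above them. The constitutive Hsp70 gene Hsc70-4 rose 1.28-fold and the Hsp70-Hsp90 bridge Stip1 1.35-fold.

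Single-exposure replicate 3 had the highest value of its group for CCT5 (501), DnaJ-1 (708), Hsp26 (566), Stip1 (660), Hsc70-4 (3563) and P58IPK (405). Without it the folds were 1.4 for CCT5, 1.42 for DnaJ-1, 1.35 for Hsp26, 1.23 for Stip1, 1.24 for Hsc70-4 and 1.2 for P58IPK, and all 6 were still called. The call of Hsp26 was lost under 7 alternatives (adjusted p up to 0.109), among them without naive replicates 1, 2, 3 or 6, and that of Stip1 under 3 (up to 0.0845), among them without naive replicate 6.

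**Figure D5:**
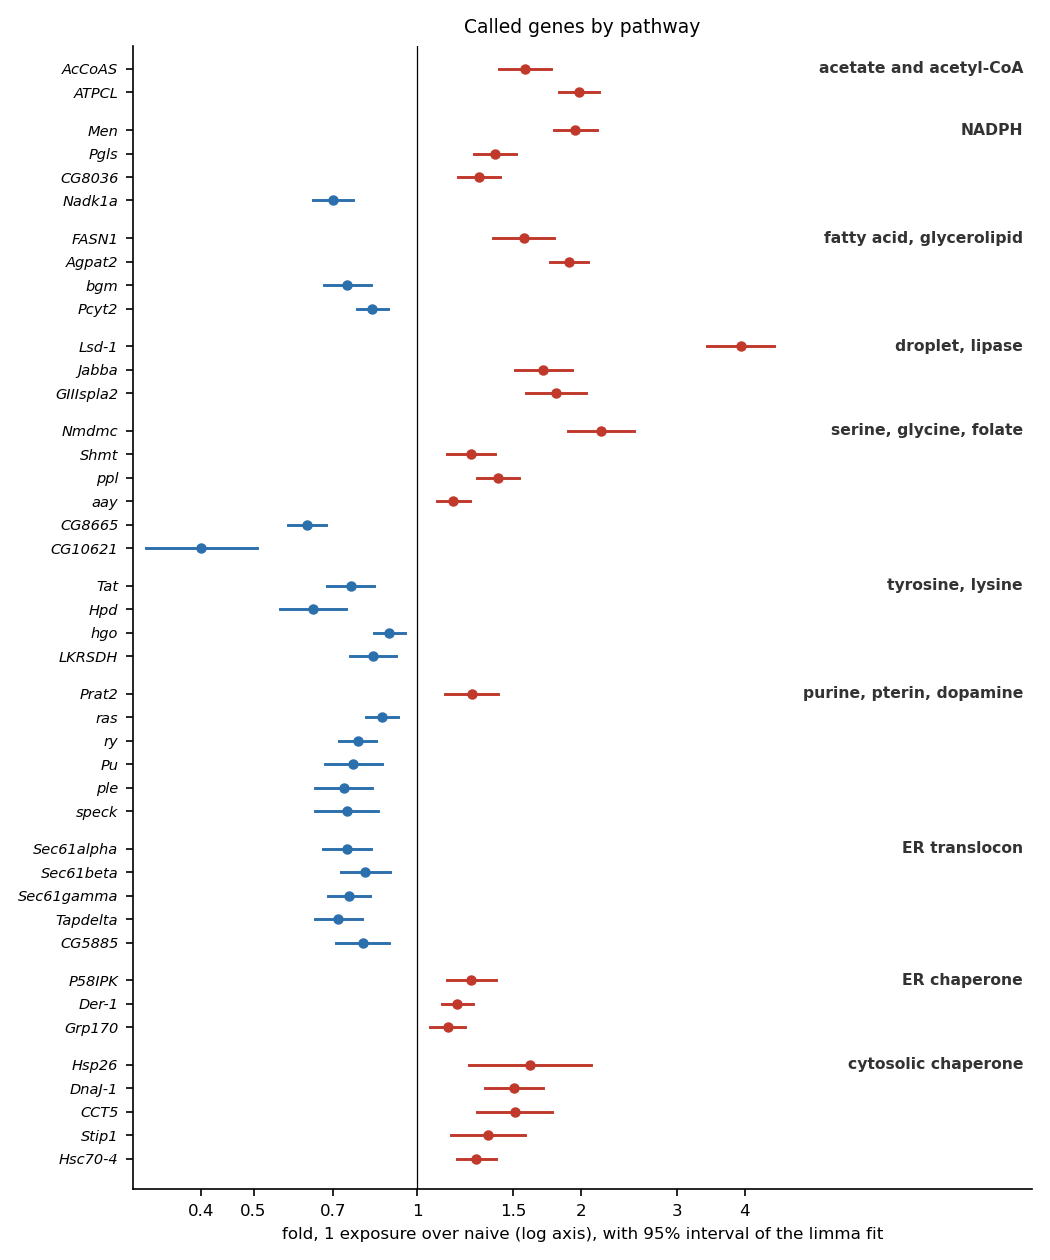
Fold of 42 called genes with its 95% interval from the limma fit, on a log axis, grouped by pathway (red higher, blue lower). Acetyl-CoA, droplet and cytosolic chaperone genes lie above 1, and tyrosine, pterin, dopamine and ER translocon genes lie below 1, with CG10621 at 0.401 and Lsd-1 at 3.93 at the ends.

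Sugar metabolism was touched at single enzymes. Pepck1, which makes phosphoenolpyruvate for the synthesis of glucose and of the glycerol of fat, varied widely in naive heads, 708 to 2255 (median 1338), and little after exposure, 2906 to 3213 (median 3055). All exposed arrays were above the naive range (2.35-fold, 1.79 to 3.08, adjusted p = 0.000189). Tps1, which makes the blood sugar trehalose, rose 1.31-fold (adjusted p = 0.000145), and the maltase gene Mal-B2 1.46-fold (5.36e-05). Of 18 genes of glycolysis and gluconeogenesis 2 rose and 2 fell, and apart from Pepck1 these lay between 0.842 (Hex-A) and 1.17 (Pgi), with calls lost under 1 to 8 alternatives (adjusted p up to 0.0718 for Pgi). The list of 13 citric acid cycle genes had no call in limma and 2 members at an unadjusted p under 0.05.

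Oxidative phosphorylation subunits, 63 tested, had 52 members with a fold below 1 and a median log2 fold change of -0.08, which was -0.09 under median centring and -0.10 under quantile normalization. Only 2 passed, both lower, ND-18 (0.87-fold) and ND-B14 (0.904), and they lost their calls under 5 and 11 alternatives (adjusted p up to 0.0676 and 0.112). Over the alternatives the number lower ran from 0 (without naive replicates 2 or 5 or single-exposure replicates 2 or 4) to 8 (quantile normalization). Muscle markers also lay mostly below a fold of 1, with 17 of 21 below 1 and none called (4 at an unadjusted p under 0.05, and 1 and 3 called lower without naive replicates 3 and 4), at a summed intensity of 20374 to 28512 in naive heads and 22166 to 25663 after exposure. The part of muscle RNA in the shift was not tested.

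Of the secreted nutrient signals in heads, fit and Lst were among the lowest folds of the comparison. The gene fit, a fat body peptide of the satiety response to protein, lay between 1909 and 2896 in naive heads (median 2589) and between 823 and 1408 after exposure (median 925). The highest exposed array was below the lowest naive one (0.398-fold, 0.319 to 0.498, adjusted p = 6.6e-06). Lst, limostatin, a hormone of hungry flies that curbs insulin release, lay between 452 and 736 in naive heads (median 553) and between 252 and 424 after exposure (median 274) (0.527-fold, 0.442 to 0.629, adjusted p = 3.52e-05), also without overlap. In the list of 19 satiety and nutrient hormone genes SPARC was lower too (0.866-fold, adjusted p = 0.0285, lost under 6 alternatives up to 0.0733) and ImpL2, a secreted protein that binds insulin-like peptides, rose 1.26-fold (adjusted p = 0.000511). Stat92E, the transcription factor of the JAK/STAT pathway, was at 0.707-fold (adjusted p = 0.000145), and path, an amino acid transporter gene that promotes growth, at 0.789-fold (0.0018).

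Among 26 circadian clock genes 3 rose and 3 fell. Clk, the activator whose protein switches on per and tim, lay between 95.3 and 119 in naive heads (median 106) and between 71.1 and 86.8 after exposure (median 81.6), with the groups apart (0.755-fold, adjusted p = 0.000189). The exposed median of Clk lay under the filter on mean level (85.8), which the gene passed through its higher arrays. All its values in these groups were above the floor of 57.8, but near enough to it that the size of the fall is not reliable. Over the alternatives its fold ran from 0.739 to 0.812, and the call was kept (adjusted p up to 0.00183). The repressor gene cwo was at 0.795-fold and Achl at 0.747. The Clk repressor vri rose 1.25-fold (adjusted p = 0.00087), tim 1.29-fold (0.016) and the deubiquitinase Usp8, which acts on CLK, 1.84-fold (4.1e-05). The call of tim was lost under 2 alternatives (adjusted p up to 0.0803). The labels do not state the time of day of freezing, and exposed flies were frozen after a longer procedure than naive flies.

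Activity-regulated genes, which neurons switch on when they fire, had 3 of 15 lower and none higher. The transcription factor sr, homologous to mammalian Egr genes, lay between 196 and 301 in naive heads (median 271) and between 152 and 208 after exposure (median 176) (0.684-fold, 0.591 to 0.792, adjusted p = 0.00156), and the ranges overlapped. The others were CG13868 (0.701-fold) and CG14186 (0.886). Among 33 genes that studies of ethanol behaviour in flies have named, 1 rose, Men, and 2 fell, the growth factor receptor Egfr and the insulin receptor substrate chico, with calls lost under 6 and 11 alternatives (adjusted p up to 0.086 and 0.0968).

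The immune genes showed 2 higher and 3 lower of 40. PGRP-SB1, a peptidoglycan recognition protein gene induced by bacteria through the Imd pathway, lay between 501 and 686 in naive heads (median 567) and between 277 and 344 after exposure (median 309.5). The groups lay well apart (0.541-fold, 0.492 to 0.596, adjusted p = 9.07e-09). The Toll-dependent peptide gene IM33 was at 1.14-fold (adjusted p = 0.0076). The other 3, BomBc2 (1.24), SPE (0.858) and Tl (0.889), lost their calls under 7, 12 and 13 alternatives (adjusted p up to 0.0978, 0.106 and 0.135). Spn27A, an inhibitor of the melanization protease cascade, rose 1.57-fold (adjusted p = 5.18e-07). It was the single call among 40 serine proteases and serpins (2.5%, against 4.65% over all genes). Idgf1, a secreted growth factor related to chitinases, rose 1.67-fold (adjusted p = 0.000164).

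Of 57 amino acid and solute transporter genes 3 rose and 8 fell. The strongest fall was that of CG15096, 1397 to 1977 (median 1807) in naive heads and 1007 to 1236 (median 1089) after exposure, without overlap (0.633-fold, adjusted p = 6.96e-06). Oatp30B, an organic anion transporter, was at 0.795-fold and the zinc transporter ZnT63C at 0.878. CG8654 had the highest fold of the list, 1.63 (adjusted p = 0.000362). Further genes in no list were among the largest changes. The gene Miox, for myo-inositol oxygenase, was at 0.722-fold (adjusted p = 3.5e-06), ana, a secreted glycoprotein of glia, at 0.624-fold (2.45e-08), and Sply, sphingosine-1-phosphate lyase, rose 1.46-fold (1.66e-06). Of genes whose roles are not given here, CG6908 rose 2.71-fold, CG5958 1.62-fold, CG10516 1.52-fold and CG16926 2.05-fold, and phu fell to 0.439-fold, CG16743 to 0.69-fold, Phyhd1 to 0.725-fold, CG11425 to 0.731-fold, Srg1 to 0.597-fold and CG5172 to 0.533-fold. The call of CG11425 was lost under 11 alternatives (adjusted p up to 0.124), 9 of them with 1 array left out. Of the 347 genes called, 197 were in none of the 47 pathway lists and 117 carried no name beyond a CG number.

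In 9 pathway lists no member was called by limma, and 33 of their 374 tested genes had an unadjusted p under 0.05, against 1141 of 7466 over all genes. These lists were the citric acid cycle (13 genes), mitochondrial ribosomal proteins (65), cytosolic ribosomal proteins (35), the proteasome (33), synaptic vesicle release (23), neuropeptides (33), odorant-binding proteins and chemoreceptors (70), histone acetylation and sirtuins (18) and cuticle proteins (84). For cuticle proteins this depended on the settings: 6 were called lower without naive replicate 4 and with the replicate block, and 2 without single-exposure replicate 1. Cuticle genes were also called lower under quantile normalization, median centring, the stricter filter, the pseudocount and array weights. Of the odorant list 1 was called lower under quantile normalization, with the replicate block, and without naive replicates 4 or 6 or single-exposure replicate 1. Of the citric acid cycle 1 was called lower without naive replicate 4. Of the histone list 1 was called lower under quantile normalization and without single-exposure replicate 1. The replicate block gave 2 odorant genes higher, and neuropeptides had up to 1 higher over the alternatives. Ion channels had 1 of 43 called (2.33%, against 4.65% over all genes), the glutamate-gated chloride channel gene GluClalpha (1.21-fold). Its call was lost under 3 alternatives (adjusted p up to 0.0671).

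Markers of cell types and tissues were compared between the groups. This cannot test the label of whole heads, because a lack of calls does not show which tissues were sampled. Photoreceptor markers summed to an intensity of 19215 to 21583 in naive heads and 20874 to 22240 after exposure, with 7 tested and none called (up to 1 higher over the alternatives). Neuron markers summed to 3843 to 4396 and 3762 to 4383, with 1 of 12 called, jeb (1.18-fold). Glia markers had Gat lower and Indy higher of 13 (0.789 and 1.18, the latter lost under 4 alternatives with an adjusted p up to 0.0636, among them without single-exposure replicates 1 or 6) and sums of 8812 to 9762 and 8578 to 9165. Of these 13 markers, 11 had a fold below 1, also under quantile normalization and median centring, and the list median log2 fold change was -0.02. The part of glial RNA in the fall of Gat was not tested. Fat body markers summed to 41355 to 45420 and 41837 to 43580. Of the 12 fat body genes tested, fit fell and the storage protein gene Lsp2 rose (1.43-fold, adjusted p = 0.012, 0.06 without a filter). None of the 9 haemocyte, 14 gut, 8 Malpighian tubule, 10 testis, 14 ovary, 5 salivary gland and 7 antennal markers was called, with 1, 1, 1, 0, 0, 0 and 0 at an unadjusted p under 0.05. Summed fat body signal overlapped between the groups, as did the sums of neuron, photoreceptor, glia and muscle markers.

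Some genes were read by more than 1 probe set on the same arrays. Of 24 called genes with over 1 tested probe set, 21 had the same sign on each, and 3 were called on each. Men was one of these, with a log2 fold change of 0.89 on its second probe set (adjusted p = 5.64e-08) against 0.96 on the first. The second probe sets of Cyp9b2 (0.09, adjusted p = 0.499), bw (-0.15, 0.289), AOX3 (-0.02, 0.938), cwo (-0.16, 0.0733), tim (0.23, 0.255), Egfr (-0.20, 0.0988) and jeb (0.07, 0.714) were not called, and of these 7 that of AOX3 had the opposite sign.

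Naive heads are also the reference for the 6 samples taken after 5 exposures, so the following values share their controls and are given side by side without a test. GstE7, at a median of 358 after 1 exposure, lay between 46.1 and 60.6 (median 54.7) after 5, and GstE3 lay between 316 and 374 (median 334). For Men and ATPCL the ranges after 5 exposures, 1455 to 1679 (median 1547) and 492 to 606 (median 571), met the naive ranges given above. Lsd-1 stood between the other groups at 1296 to 1853 (median 1488), above every naive array and below every single-exposure array. The gene fit lay between 1771 and 3584 (median 2928) after 5 exposures, around its naive values, whereas ple at 395 to 470.5 (median 432), Hpd at 458 to 801 (median 618) and ry at 126 to 146 (median 136) overlapped the range seen after 1 exposure. CG10621 lay between 202 and 350.1 (median 264) and Lst between 296 and 393 (median 359).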

How the data were processed

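Heads of 18 samples were hybridised to one-colour Affymetrix arrays, per the labels. The deposited values are linear intensities, 1 per probe set and array, already summarised and brought to a common scale by the authors with software named in no label, and they carry no detection calls. A probe set's intensity pools several short probes, so it does not give transcript counts, and the number of arrays limits the precision. Of 14010 probe sets, 44 were controls, and 12444 had a single gene symbol in the platform annotation.

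Intensities under the pooled 20th percentile (57.8) were set to it and log2 was taken. Controls and probe sets of low mean log2 (under 6.42, an intensity of 85.8) were left out, leaving 9317 probe sets. All 18 arrays entered a single model with a mean for each of the 3 groups (lmFit and eBayes of limma 3.58.1, R 4.3.3, no block, 15 residual degrees of freedom), and genes were called at a two-sided Benjamini-Hochberg adjusted p under 0.05 over all probe sets tested. Folds are ratios of geometric means with 95% intervals of the fit. Where a gene had several probe sets, the brightest on average stood for it. The p-values cover the spread between what the labels call biological replicates.

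The comparison, the 60 gene lists (47 of pathways, 13 of markers) and the alternatives were chosen with earlier results of these data known, so counts over a list describe it and no list was tested. After the data were read, 3 names that had matched another gene through a synonym were taken out of the lists. The rule for named genes took the called genes with the 40 highest and the 30 lowest folds, up to 8 members of each list by smallest p, and all members of lists with at most 12 tested. All 70 of the first kind are named and, of the list members, mainly those called. GstD2, GstD9, Cyp309a1, Cyp309a2, Cyp6a21, Cyp6g1, Cyp4e3, Cyp9b1, Cyp313a1, ACC, Agpat1, Agpat3 and Agpat4 were named after their values were seen. Gene order came from a current RefSeq gene table. On simulated data for this comparison (9317 probe sets, 50 changed at each size) the fit recovered 82% at 1.2-fold, 98% at 1.5-fold and 100% at 2-fold and 3-fold, with 14 false calls. Tables and plots were made in Python 3.11.15 with numpy 2.4.6, matplotlib 3.10.9 and pandas 2.3.3.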

Additional observations from a re-analysis of the deposited data

Results flagged for a closer look

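For 24 of 336 sets of 6 arrays (168 named genes, naive and single-exposure groups), the highest or lowest array lay beyond the 95% limit of Dixon's gap test, which divides its distance to the nearest array by the whole log2 range. This is 7.14% of the sets, where chance gives about 1 in 20.

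Single-exposure replicate 3 stood above the other 5 exposed arrays for 3 chaperone genes. Hsp26 had an intensity of 566 there against at most 212 in the others, Hsc70-4 had 3563 against 2970.4, and Stip1 had 660.4 against 420.3. It stood below them for Phyhd1 (373, nearest 440.2). Naive replicate 5 stood below the other naive arrays for 5 genes: CG3164 (619.6, nearest 733), Cyp4ac1 (147, nearest 202), Indy (462, nearest 554), Stat92E (452, nearest 582) and eEF1delta (335, nearest 359). It stood above them for Cyp6a8 (148, nearest 131).

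Naive replicate 4 was apart for Gat (419.8, below the others), and above the others for Jabba (459), P5cr-2 (356) and Srr (133). Naive replicate 1 was lowest for CG8654 (89.5) and aay (1051), naive replicate 2 highest for Usp8 (129) and ana (149.9), and naive replicate 6 lowest for CG3609 (629.7). In the exposed group, replicate 2 was lowest for Acadvl (452) and P5cr-2 (288) and highest for Acox3 (506), replicate 6 was highest for Miox (1640.1) and replicate 1 highest for ND-B14 (1140.4). Of these genes, ND-B14, Acadvl, Acox3, Stip1, Hsp26 and Indy lost their calls under some alternatives, as the report gives. Technical and biological sources of these values were not tested.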

How the results depend on the processing

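The count of probe sets called (412, of which 239 higher and 173 lower) stayed within 1.5 times its value under all 23 alternatives run. It was 437 with quantile normalization, 407 with median centring, 355 with no filter on low values, 374 with a stricter filter, 423 with a pseudocount of 32 in place of the floor, 412 with a lower floor and with a trended and robust prior, 360 with only the 2 groups compared and 507 with array weights. With 1 array left out it lay between 329 and 432, and without naive replicate 5 and single-exposure replicate 3 together, an alternative added after seeing the data, it was 421 (189 higher). With both left out, 7 glutathione S-transferases and 10 cytochrome P450 genes were higher in place of 9 and 13, 8 ER translocation genes were lower in place of 7, and 3 eye pigment genes in place of 5. The median log2 fold change of all genes moved from 0.01 to 0.004 under quantile normalization and to about 0 under centring. With the replicate number as a block, 502 probe sets were called, 276 higher. The labels do not say whether the numbers pair the samples. Deviations of same-numbered samples correlated at -0.16, -0.18, 0.30, -0.06, 0.04 and 0.40, and 2 of 6 numbers were their own best match. With only 6 numbers this check cannot settle whether the samples were paired. Of 157 called genes named above, 121 kept their direction and call under every alternative and 36 lost the call under at least 1, and none turned direction. The largest move of a called fold was 1.48 times (CG5966 with a lower floor). Counts of list members moved by over 1.5 times for many small counts. Oxidative phosphorylation had 0 to 8 members lower (reported 2), cuticle proteins 0 to 6 (0), muscle markers 0 to 3 (0), insulin, TOR and AMPK genes 1 to 5 (3), immune genes 1 to 4 (3) and genes reported in ethanol behaviour 0 to 2 (2). Heat shock and cytosolic chaperones had 3 to 8 members higher (5), fatty acid oxidation 1 to 5 (3) and glycogen and trehalose genes 1 to 4 (2). The causes of these moves were not tested. The smallest called folds were 1.1 and 0.909, and values near the floor of 57.8 give no reliable size.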

Other observations

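Genes of protein synthesis outside the ribosome had few calls, all of them lower. The translation factor eEF1delta, a subunit of the exchange factor that recharges elongation factor 1 alpha, lay between 335 and 373 in naive heads (median 364) and between 259 and 324 after exposure (median 296) (0.806-fold, limma adjusted p = 0.00783), and its ranges did not overlap. It was 1 of 2 translation factors lower of 35 tested (1 to 3 over the alternatives), with none higher. Of 22 genes of ribosome biogenesis and the nucleolus 2 were lower (1 to 3 over the alternatives), among them the nucleolar protein gene mod at 0.794-fold (adjusted p = 0.00455). Of 21 aminoacyl-tRNA synthetases 1 was lower (0 or 1 over the alternatives), and 11 had a fold above 1 and 10 below. Over all genes tested 1.9% were called lower, and with counts this small no shift of these lists is drawn. None of 35 cytosolic ribosomal protein genes had an unadjusted p under 0.05.

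The lipid phosphatase gene laza, which acts on phosphatidic acid in photoreceptors, was the single call among 25 phototransduction genes (1 or 2 lower and 0 to 2 higher over the alternatives). That is 4% of the list, against 4.65% called over all genes, so no shift of the list is drawn. The gene laza lay between 316 and 404 in naive heads (median 374) and between 276 and 314 after exposure (median 301) (0.804-fold, adjusted p = 0.00072), and its ranges did not overlap. In the insulin, TOR and AMPK list of 30 genes 1 rose, ImpL2, and 3 fell, path, chico and Atg101. Over the alternatives 1 to 5 fell, with 1 without naive replicates 1, 3 or 6 or single-exposure replicates 2 or 5, and the call of Atg101 was lost under 7 alternatives (adjusted p up to 0.0844). In the order of the gene table, 18 runs of neighbouring genes were called in 1 direction, 37 of the 347 called genes in all. How many runs 205 higher and 142 lower genes would give in a random order was not worked out. Some runs, such as GstE6 with GstE7, hold near copies whose probe sets can share signal, so no clustering is read from this count.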
